A study of Mus musculus with 74 samples.

Results

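The replication histone cluster genes are the genes whose symbols begin with Hist, a cluster number and h, and that symbol rule chose 69 of the 24940 genes listed in each expression table. They comprise 6 genes of linker histone H1, 19 of H2A, 19 of H2B, 12 of H3 and 13 of H4. On mouse build mm10, 55 lie on chromosome 13, 10 on chromosome 3, 3 on chromosome 11 and 1 on chromosome 6. All 69 entries were matched to RefSeq by accession. Of these, 67 are protein coding and 2, Hist1h2al and Hist3h2bb-ps, are annotated as transcribed pseudogenes. Of all entries, 6 form 3 pairs that share nearly all of their coordinates, which leaves 66 distinct loci.

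Core histones H2A, H2B, H3 and H4 form the spool on which DNA is wound, and H1 binds the linker DNA between spools. The cluster genes are known for supplying histones in S phase, when DNA is copied. Most of their mRNAs carry no poly(A) tail and end in a stem-loop that is bound by SLBP and cut with the help of the U7 particle, so libraries made from poly(A) RNA capture them poorly. Ribosome footprints and nascent RNA do not need a tail. Replication-independent histones such as H3.3 come from genes outside this set, with ordinary poly(A) tails. Adult muscle fibres are postmitotic, while other cells of the tissue can divide.

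All samples were quadriceps of C57BL/6 mice, and the labels give no ages. BCL6 is a transcriptional repressor, and the study deleted it with a tamoxifen-activated Cre that the labels call AEC-Esr Cre, or blocked it with FX1, an inhibitor of BCL6. Ribosome footprints and poly(A) RNA were each measured in 4 knockout animals, AEC-Esr Cre (+):Bcl6 fl/fl; RiboTag (+) given tamoxifen, and in 4 controls, AEC-Esr Cre (+); RiboTag (+) given tamoxifen. Both RiboTag groups thus carry the Cre, the tagged ribosomal protein and the drug, and differ by the floxed Bcl6. A further poly(A) series had 5 knockout animals, AEC-Esr Cre (+):Bcl6 fl/fl given tamoxifen, 4 Cre-negative animals, Bcl6 fl/fl given tamoxifen, and 4 oil-treated animals, AEC-Esr Cre (+):Bcl6 fl/fl given oil. Nascent RNA came from wild-type quadriceps, 5 treated with FX1 and 5 with DMSO. H3K27ac, an acetylated form of the H3 tail found at regulatory DNA in use, was mapped by ChIP in 3 sets of 3 knockout and 3 Cre-negative animals. The set counted on BCL6 peaks was given tamoxifen, per its column names. Its title numbers are those of 3 knockout and 3 Cre-negative animals of the further poly(A) series. Titles of the other sets name them acute or chronic, control or imKO, and name no drug. BCL6 binding was mapped in 1 wild-type ChIP library. RiboTag places an HA tag on a ribosomal protein in cells that express Cre, so that their ribosomes can be pulled down with an anti-HA antibody. The RiboTag mRNA libraries also carry the anti-HA antibody in their labels, which do not say whether their RNA was whole muscle RNA or a pull-down. The labels do not spell out the promoter that drives the Cre. In bulk tissue fewer cells of a type and less RNA per cell cannot be told apart.

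Counts assigned to genes ranged from 3248807 to 4317340 in knockout and 3731705 to 4370468 in control footprint libraries. In RiboTag mRNA libraries they ranged from 9042558 to 13045854 in knockout and 6499561 to 10590482 in control. Bcl6 itself averaged 91.5 ± 18.3 CPM (counts scaled to a library total of 1000000) in knockout and 194 ± 59.9 CPM in control footprints (SD, n = 4 each), a log2 change of -1.12 (edgeR quasi-likelihood test, Benjamini-Hochberg adjusted p = 0.00201). In the RiboTag mRNA its log2 change was 0.14 (adjusted p = 0.84). In the separate poly(A) series the log2 change was -0.23 against Cre-negative animals (limma, adjusted p = 0.0134) and -0.31 against oil-treated ones (adjusted p = 0.00272). The files do not say which Bcl6 exons are floxed, so reads outside the deleted part check nothing.

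Promoters of the cluster genes were read from RefSeq on GRCm38.p6 as 250 bases before and 50 after the start of each gene. Of the 69 members, 62 had a promoter entry, in 63 windows. A set of 4 promoters is printed because their genes carry the results. Of the 62 members with an entry, Hist4h4 and Hist1h4h are those whose windows overlap a BCL6 peak that has a member as its nearest gene. Peaks nearest to other genes were not compared with the windows. Hist1h1c had the highest level per kilobase in every kind of RNA library, and Hist3h2a passed the test under FX1. Capitals mark matches, on either strand, to CCAAT, to the octamer ATTTGCAT, to the H1 box AAACACA and to the BCL6-type letters TTCNNNGAA. The motif TATAAA was searched as well and is absent from these 4 windows, and Hist1h4h holds none of the 5.
Hist4h4 (H4), chr6:136804382-136804681, minus strand: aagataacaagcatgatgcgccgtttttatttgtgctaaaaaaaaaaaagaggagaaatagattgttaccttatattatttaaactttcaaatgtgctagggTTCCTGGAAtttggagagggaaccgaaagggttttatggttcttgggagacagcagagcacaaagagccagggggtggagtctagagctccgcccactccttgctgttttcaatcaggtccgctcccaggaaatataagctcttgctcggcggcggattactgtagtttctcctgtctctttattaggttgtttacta
Hist1h4h (H4), chr13:23530794-23531093, plus strand: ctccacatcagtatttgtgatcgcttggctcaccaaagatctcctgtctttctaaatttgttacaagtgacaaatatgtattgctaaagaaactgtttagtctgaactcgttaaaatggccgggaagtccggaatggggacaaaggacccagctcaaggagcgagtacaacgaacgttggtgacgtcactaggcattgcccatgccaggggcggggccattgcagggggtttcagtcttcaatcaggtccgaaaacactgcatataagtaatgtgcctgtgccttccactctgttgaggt
Hist1h1c (H1), chr13:23738557-23738856, plus strand: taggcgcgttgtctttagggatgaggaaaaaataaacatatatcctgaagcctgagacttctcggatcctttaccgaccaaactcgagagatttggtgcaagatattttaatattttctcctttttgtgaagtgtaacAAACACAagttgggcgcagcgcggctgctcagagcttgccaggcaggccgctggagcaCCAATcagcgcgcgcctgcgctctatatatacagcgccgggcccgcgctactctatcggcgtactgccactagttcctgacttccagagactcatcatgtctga
Hist3h2a (H2A), chr11:58954435-58954734, plus strand: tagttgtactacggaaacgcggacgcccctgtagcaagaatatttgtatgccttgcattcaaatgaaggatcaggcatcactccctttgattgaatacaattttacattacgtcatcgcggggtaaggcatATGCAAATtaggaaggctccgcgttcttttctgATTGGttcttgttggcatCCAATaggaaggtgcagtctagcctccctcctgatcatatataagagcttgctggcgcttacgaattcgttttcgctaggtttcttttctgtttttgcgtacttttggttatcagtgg

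The motifs followed the histone class. CCAAT was found in every H1, H2A, H2B and H3 window and in 3 of 12 H4 windows, against 37.4% of all 32851 promoter windows. The octamer occurred in 38.9% of H2A and 41.2% of H2B windows and in no H1, H3 or H4 window, against 1.74% of all. The H1 box was present in 5 of 6 H1 windows, 83.3%, against 7.18% of all. TATAAA was found in 55.6% of member windows and 13.6% of all, and the BCL6-type letters in 4.76% of member windows and 8.3% of all. None of the searched motifs overlap in the windows printed here, and a match is a string of letters, not a measured site.

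Footprints covered far more of the family than poly(A) mRNA did. In knockout muscle 37 to 47 of the 69 members had at least 1 footprint count per library and 20 to 31 had an mRNA count. In control muscle 41 to 44 had a footprint count and 21 to 29 an mRNA count. In the footprints 13 members were at 0 in all 4 knockout libraries and 14 in all 4 controls, against 28 in knockout and 31 in control mRNA, although the mRNA libraries held more counts in total. The 7 most abundant members took 68.5% of the family's footprint counts in knockout and 70.3% in control, against 95.7% and 95.2% of its mRNA counts. Summed over the family, footprints averaged 475.1 ± 29.9 CPM and mRNA 213 ± 18.0 CPM in knockout muscle, against 394.2 ± 46.2 and 225.7 ± 24.0 CPM in control muscle (SD, n = 4 each). The ratio of these footprint and mRNA means was 2.23 in knockout and 1.75 in control. Without Hist1h2bc, Hist1h2be and Hist2h2be it was 3.98 in knockout and 3.15 in control. These are 3 of the 5 members whose entries span more than 2000 bases. All 3 had more mRNA than footprints, and the choice was made after seeing the values.

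**Figure D1:**
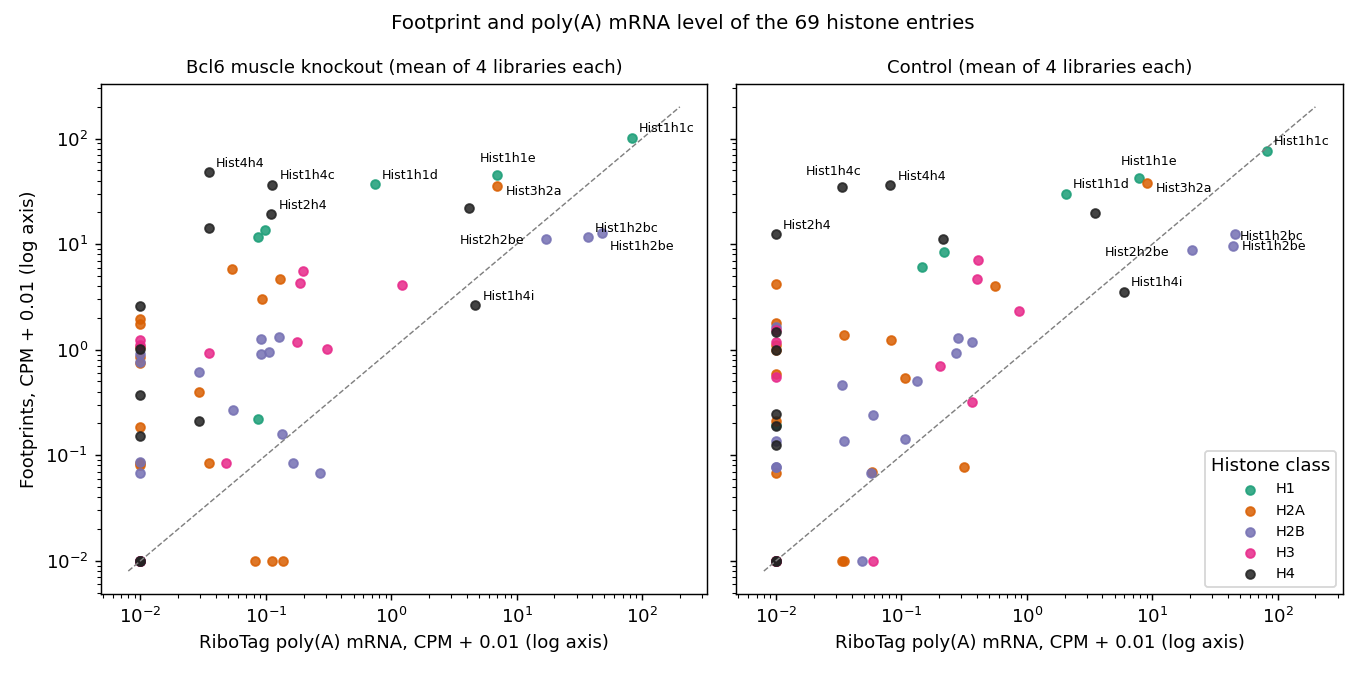
Each point is 1 of the 69 histone entries, with mean RiboTag poly(A) mRNA on the x axis and mean ribosome footprints on the y axis (CPM + 0.01, log axes, 4 libraries each), in knockout muscle on the left and control muscle on the right, coloured by histone class. The dashed line marks equal CPM; Hist4h4 and Hist1h4c lie far above it at 48.1 and 36.7 footprint CPM in knockout muscle, and Hist1h2bc, Hist1h2be, Hist2h2be and Hist1h4i lie below it.

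Histone H4 showed the widest gap between the library types. H4 genes summed to 147 ± 16.9 CPM in knockout and 120.7 ± 11.6 CPM in control footprints, against 9.10 and 9.72 CPM in the mRNA (n = 4 each). H3 genes summed to 19.5 and 18.4 CPM in knockout and control footprints and to 2.11 and 2.25 CPM in mRNA. H2A genes summed to 56.1 and 53.8 CPM in knockout and control footprints and to 7.54 and 10.2 CPM in mRNA. H2B ran the other way, with 42.8 and 37.6 CPM in knockout and control footprints and 103.4 and 111.6 CPM in mRNA. Most of its mRNA came from Hist1h2bc, Hist1h2be and Hist2h2be. H1 genes, at 209.6 CPM in knockout and 163.8 CPM in control footprints, had 90.8 and 91.9 CPM in mRNA, mostly from Hist1h1c.

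Hist4h4, an H4 gene that sits alone on chromosome 6 (136803993 to 136804431, minus strand), had 182, 171, 163 and 171 footprint counts in the knockout libraries and 198, 151, 115 and 123 in the controls. In the mRNA it had 1, 0, 0 and 0 counts in knockout and 2, 0, 1 and 0 in control. The footprint level was thus 1990 times the mRNA level in knockout (95% exact binomial interval 356 to 78700) and 457 times in control (156 to 2220), as ratios of CPM. Such intervals cover counting error only, since reads without molecular identifiers are not independent molecules. Hist1h4c, in the chromosome 13 cluster (23698084 to 23698458), had 137, 116, 138 and 134 footprint counts in knockout and 174, 120, 137 and 123 in control, with 0, 0, 3 and 1 mRNA counts in knockout and 1, 0, 0 and 0 in control. Every footprint library of both genes lay above every mRNA library, although the mRNA libraries were the deeper ones. For Hist1h4c the ratio was 380 in knockout (148 to 1400) and 1290 in control (231 to 51200).

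Hist2h4, an H4 gene of the chromosome 3 cluster (96262934 to 96263317), had 70, 58, 71 and 76 footprint counts in knockout and 56, 56, 42 and 47 in control. Its mRNA counts were 4, 0, 0 and 0 in knockout and 0 in all 4 controls, so that its control footprint level was at least 157-fold higher than its mRNA level, taking 3 counts over the group as the limit a count of 0 allows. Hist1h4d, on chromosome 13, had 59, 42, 48 and 53 footprint counts in knockout and 61, 41, 31 and 49 in control, and 0, 1, 0 and 0 mRNA counts in knockout against 4, 2, 1 and 1 in control. Hist1h4h had a ratio of 5.26 in knockout (4.36 to 6.37) and 5.8 in control (4.71 to 7.17). Hist1h4i was the exception among H4 genes with counts of this size, at 0.55 in knockout (0.376 to 0.784) and 0.597 in control (0.438 to 0.802). H4 genes encode the same protein from very similar coding sequences, so the authors' assignment of reads among them is uncertain.

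H1 genes were as uneven. Hist1h1c, a linker histone also made outside S phase in many differentiated tissues, had 301, 357, 344 and 479 footprint counts in knockout and 295, 281, 286 and 362 in control. Its mRNA counts were 791, 899, 763 and 992 in knockout and 723, 816, 817 and 646 in control. In CPM its ratio was 1.25 in knockout (1.17 to 1.32) and 0.953 in control (0.891 to 1.02), close to level. Hist1h1e, another H1 variant, had 45.2 ± 5.34 footprint CPM in knockout and 42.6 ± 7.82 in control, and 7.02 ± 1.57 and 7.78 ± 1.22 mRNA CPM, ratios of 6.4 and 5.4. Hist1h1d had 37.1 ± 8.34 footprint CPM in knockout and 30.0 ± 4.41 in control, with 0.728 ± 0.466 mRNA CPM in knockout and 2.04 ± 0.403 in control. Hist1h1a had 3 mRNA counts over the knockout libraries and 5 over the controls, and its ratio was 170 in knockout (57.2 to 832) and 45.3 in control (18.8 to 143). Hist1h1b had 4 and 8 mRNA counts and ratios of 148 in knockout (56.8 to 547) and 39.4 in control (19.5 to 93.2).

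The members with more mRNA than footprints were few and mostly H2B. Hist1h2bc had 39, 32, 38 and 61 footprint counts in knockout and 25, 45, 21 and 63 in control, against 346, 371, 346 and 486 mRNA counts in knockout and 385, 505, 436 and 312 in control. Its ratio was 0.318 in knockout and 0.22 in control. For Hist1h2be it was 0.266 and 0.277, and for Hist2h2be 0.649 and 0.41. These entries have gene bodies of 8281, 37454 and 2666 bases, and counts were taken over the whole body, introns and long final exons included; the part of that in their ratio was not tested. Hist3h2a, an H2A gene of chromosome 11, stood on the other side with ratios of 5.14 in knockout (4.45 to 5.96) and 4.07 in control (3.56 to 4.66).

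Fitted across all genes, 21 members passed the count filter in knockout muscle, of which 17 were higher and 4 lower in footprints than in mRNA (edgeR, adjusted p below 0.05). In that comparison 74.6% of all genes were called, 36.7% higher and 37.9% lower. In control muscle 19 members passed the filter, with 14 higher and 4 lower, against 71.6% of all genes called, 34.8% higher and 36.8% lower. Members that passed the filter only through their footprints had to differ, so these counts describe the members and carry no weight of their own. The 4 lower members were Hist1h2bc, Hist1h2be, Hist2h2be and Hist1h4i in both groups. For Hist1h1c, with ample counts in both library types, the log2 difference was 0.31 (SE 0.107, adjusted p = 0.0182) in knockout and -0.21 (SE 0.15, adjusted p = 0.22) in control. Libraries are named here as in their titles, RPF for footprints and RNA for mRNA. The knockout value was 0.24 without knockout library RPF_11722 (adjusted p = 0.071) and 0.24 without RNA_11722 (adjusted p = 0.0665).

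Genes outside the set gave a contrast in the same libraries. In the list of replication-independent histones, most of whose mRNAs carry poly(A) tails, 10 genes were tested in each muscle. In knockout 0 were higher and 5 lower in footprints than in mRNA, and in control 0 were higher and 6 lower. H3f3b, which encodes H3.3, had a log2 difference of -2.26 in knockout and -2.02 in control, and H1f0, the linker histone of resting cells, -0.94 and -1.27. Genes that make or process the tailless mRNAs were mostly higher in footprints, 14 higher and 2 lower of 18 tested in knockout and 13 higher and 3 lower of 18 in control. They include Slbp, whose protein binds the stem-loop, at 1.37 in knockout and 1.138 in control. S phase and mitosis genes gave 11 higher and 4 lower of 25 tested in knockout and 13 higher and 2 lower of 23 in control, against 36.7% of all genes higher and 37.9% lower in knockout and 34.8% higher and 36.8% lower in control.

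**Figure D2:**
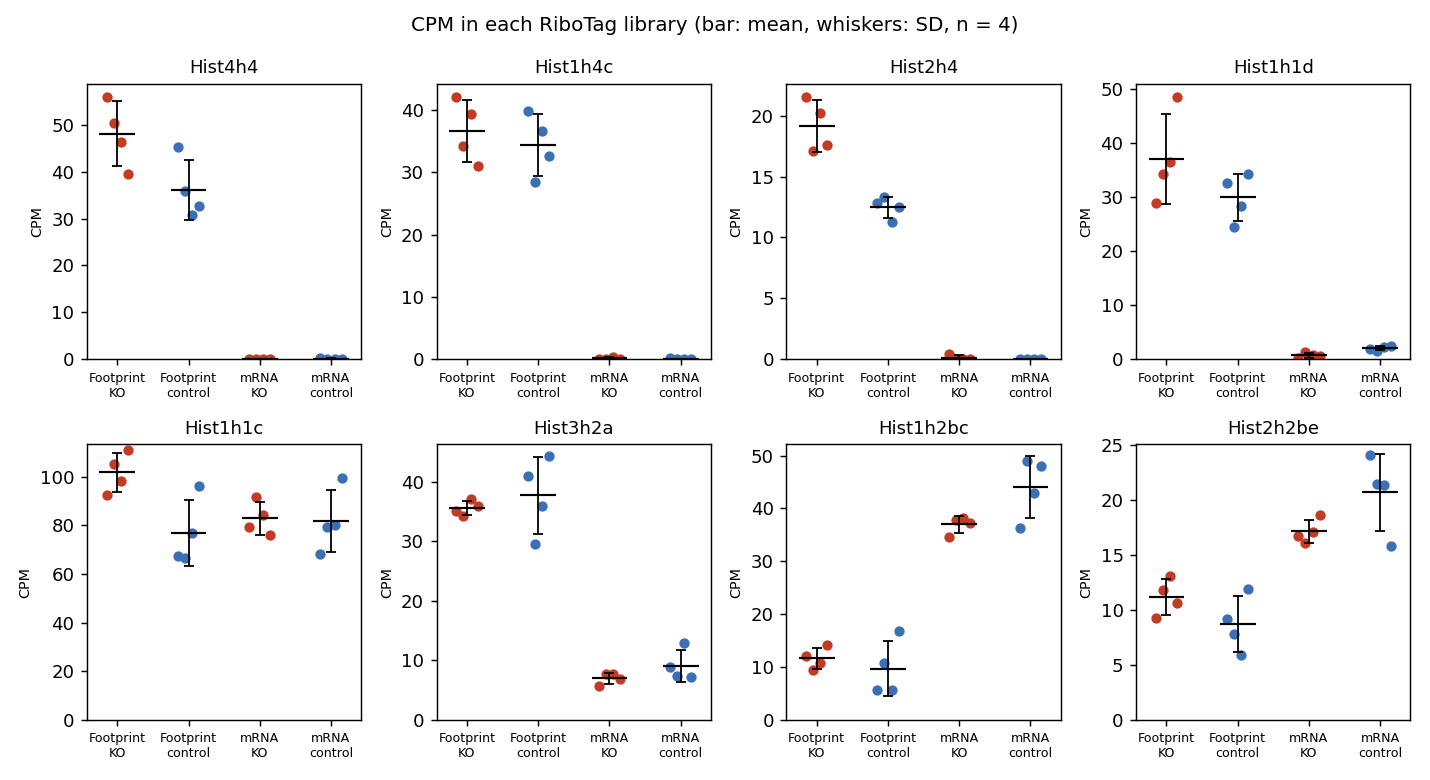
CPM (y axes) of 8 histone members in each knockout (red) and control (blue) library, footprints left and RiboTag mRNA right, with bars for the mean and whiskers for the SD (n = 4). Hist4h4 sits at 39.6 to 56.0 CPM in knockout and 30.8 to 45.3 CPM in control footprints and near 0 in the mRNA, whereas Hist1h2bc and Hist2h2be lie higher in the mRNA.

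Nascent RNA held many of the members that poly(A) RNA missed. On the authors' log2 scale, 21 members averaged at least 4 with FX1 and 22 with DMSO, against 8 in the poly(A) RNA of knockout and 8 of Cre-negative muscle. Over all genes that share was 58.6% with FX1 and 58.9% with DMSO in nascent RNA and 52.5% in both poly(A) groups. Poly(A) RNA had 23 members listed at exactly 0 in every library, and nascent RNA had 2, the testis variants Hist1h2aa and Hist1h2ba. Hist4h4 averaged 4.05 in FX1 and 4.32 in DMSO nascent RNA and -1.48 in knockout and -1.49 in Cre-negative poly(A) RNA. Hist1h4d averaged 6.03 and 6.02 in the nascent RNA and 0.63 and 0.62 in the poly(A) RNA. Since the tables were normalized apart and each on its own scale, levels are set side by side and not tested.

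A few members stood high in each kind of library. Per kilobase of exon, on the log2 scale, Hist1h1c led the poly(A) RNA at 8.98 in knockout and 8.97 in Cre-negative muscle, followed by Hist1h2bc at 7.88 and 7.87 and Hist3h2a at 7.33 and 7.31. On the same scale, nascent RNA was led by Hist1h1c at 8.37 with FX1 and 8.28 with DMSO, then Hist1h4d at 7.48 and 7.48. Footprints per kilobase of exon were led by Hist1h1c, at 140.9 CPM in knockout and 106.3 CPM in control, followed in knockout by Hist4h4 at 110.4 and Hist1h4c at 98.6 and in control by Hist1h4c at 92.5 and Hist4h4 at 82.9. Across the 66 loci, control footprints per kilobase had a Spearman correlation of 0.551 with DMSO nascent RNA and 0.39 with Cre-negative poly(A) RNA, as a description over loci that differ in length and base composition. Footprints and nascent RNA were counted over whole gene bodies but divided here by exon length. For entries with long bodies, such as Hist1h2bc, these levels per kilobase are therefore uncertain.

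Some members with nascent RNA had no footprints at all. Hist2h2aa1 and Hist2h2aa2, a pair of H2A copies on chromosome 3, averaged 5.85 and 5.86 with FX1 and 6.14 and 6.14 with DMSO in nascent RNA, with 0 footprint counts in all 8 libraries. Hist1h4n, an H4 entry, averaged 5.16 with FX1 and 5.39 with DMSO and also had 0 footprint counts, while its overlapping partner Hist1h4m had 13, 0, 15 and 9 in knockout and 0, 9, 5 and 9 in control. The H3 pair Hist2h3c1 and Hist2h3c2 averaged 4.27 each with FX1 and 4.35 each with DMSO and had 0 in every RiboTag library. These entries are near-identical or overlapping copies, and how reads that match more than 1 copy were counted is not given in the sources used here, so their values are uncertain.

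**Figure D3:**
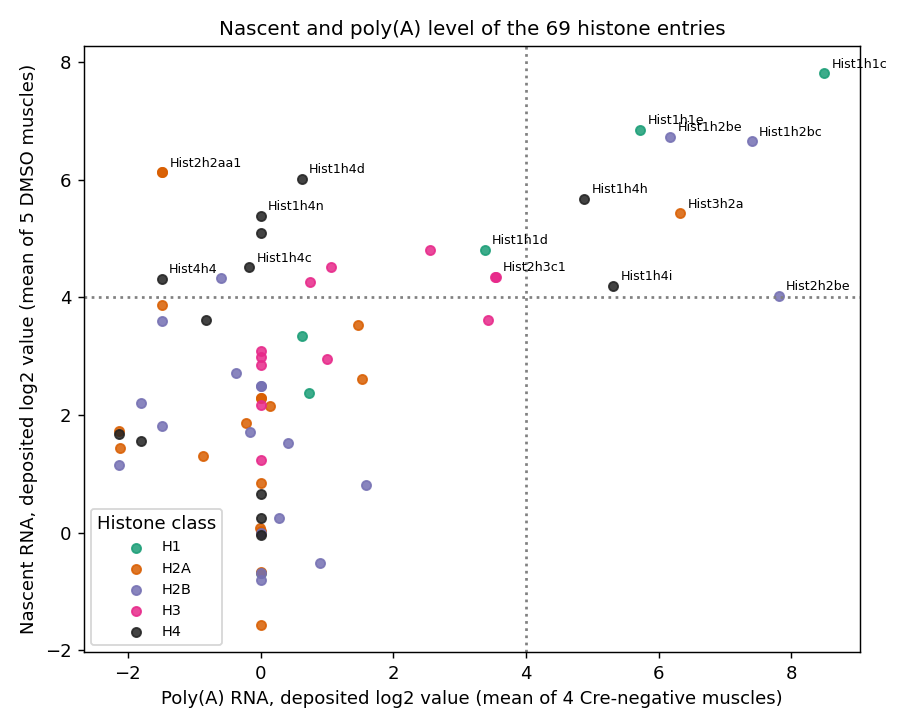
Each point is a histone entry, with its mean deposited log2 value in Cre-negative poly(A) RNA (x axis, 4 muscles) and in DMSO nascent RNA (y axis, 5 muscles), coloured by class, and dotted lines at the filter value of 4. Hist4h4, Hist1h4c and Hist1h4d lie above 4 in nascent RNA and below 1 in poly(A) RNA. The 8 members right of the vertical line include Hist1h1c, Hist1h2bc, Hist1h2be and Hist2h2be.

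Of the 20 members tested in footprints 2 rose in Bcl6 knockout muscle, Hist2h4 and Hist1h1c, and none fell (edgeR, adjusted p below 0.05). In this comparison 26.6% of all genes were called, 10.9% higher and 15.7% lower, so the share of members called did not exceed that of all genes. Hist2h4 had 21.6, 17.1, 20.2 and 17.6 CPM in the knockout animals and 12.8, 13.3, 11.3 and 12.5 CPM in the controls. The groups did not overlap, and the log2 change was 0.59 (SE 0.172, adjusted p = 0.0237). Hist1h1c had 92.7, 105.4, 98.1 and 110.9 CPM in knockout and 67.5, 66.8, 76.6 and 96.0 CPM in control. The highest control, RPF_11745, lay within the knockout range, and the log2 change was 0.39 (SE 0.121, adjusted p = 0.0317). The Hist2h4 call ended without control RPF_11735 (adjusted p = 0.0695), knockout RPF_11688 (0.0577) or knockout RPF_11721 (0.0696). The Hist1h1c call ended without control RPF_11673 (adjusted p = 0.0757), RPF_11734 (0.0987) or RPF_11735 (0.0749) or knockout RPF_11721 (0.0638) or RPF_11722 (0.0884).

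Over the 20 tested members the median log2 change was 0.27, with 16 above 0, against 0.00 (0.00397) over all genes tested. Hist4h4 had a change of 0.37 (SE 0.152, adjusted p = 0.0881) and 56.0, 50.5, 46.5 and 39.6 CPM in knockout against 45.3, 35.9, 30.8 and 32.6 CPM in control, with overlap at 1 control. Hist1h4c had a change of 0.06 (-0.24 to 0.35) and Hist1h1e of 0.07 (-0.23 to 0.36). Bracketed ranges here reach a fixed multiple of the SE each way, taken from the normal distribution. The H2A gene Hist3h2a had a change of -0.11 (-0.39 to 0.17).

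The H1 genes Hist1h1a and Hist1h1b were highest in 1 knockout library. Hist1h1a had 9.23, 5.61, 14.0 and 18.1 CPM in knockout and 8.70, 3.33, 6.16 and 5.84 CPM in control, a log2 change of 0.95 (SE 0.375, adjusted p = 0.0782). Hist1h1b had 10.2, 9.15, 15.1 and 20.2 CPM in knockout and 10.8, 7.36, 6.97 and 8.23 CPM in control, a change of 0.70 (SE 0.286, adjusted p = 0.0892). The highest value of both was in RPF_11722 and the next in RPF_11721. The mRNA libraries with the same numbers also had the most counts of Mki67, a marker of dividing cells, with 36, 40, 77 and 203 in knockout, against 51, 38, 46 and 21 in control. Footprints of Mki67 were 12, 28, 25 and 76 in knockout, with RPF_11721 below RPF_11718, and 51, 20, 30 and 25 in control. Top2a, another gene of dividing cells, had 31, 47, 20 and 44 footprint counts in knockout, lowest in RPF_11721, and 120, 84, 81 and 49 in control. Neutrophil markers summed to 51.0 footprint CPM in RPF_11721 and 164.9 in RPF_11722, against 3.25 to 6.77 in the other knockout libraries and 3.56 to 9.55 in the controls. The part of these cells in the H1 values was not tested.

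**Figure D4:**
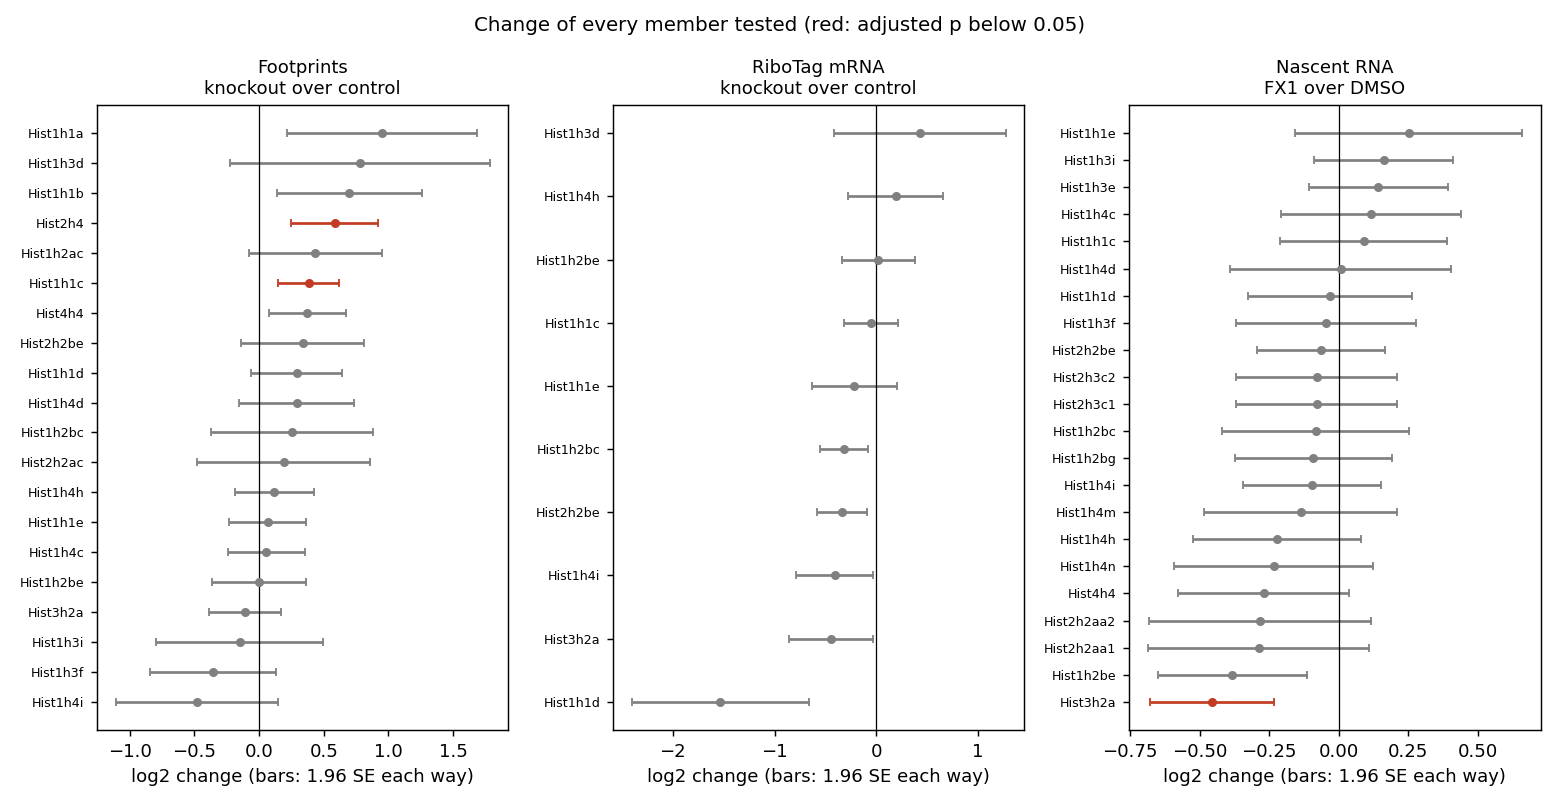
Fitted log2 change (x axes) of histone members tested in knockout over control footprints, knockout over control RiboTag mRNA, and FX1 over DMSO nascent RNA. Bars reach a fixed multiple of the SE each way, the normal quantile for 95%, and can be narrower than 95% intervals of the fitted tests. In RiboTag mRNA the bar of Hist1h4i ran from -0.787 to -0.0345 at an unadjusted p of 0.054 (edgeR). That of Hist3h2a ran from -0.858 to -0.0364 at an unadjusted p of 0.0546 (edgeR). Red marks an adjusted p below 0.05, reached by Hist2h4 and Hist1h1c in the footprints, Hist3h2a in nascent RNA (adjusted p = 0.0528 with a replicate block) and no member in the RiboTag mRNA.

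Markers of other cell types moved in the same footprint comparison. All 5 endothelial, 4 fibroblast and 5 macrophage markers fell in knockout footprints, as did 2 of 4 satellite cell markers, Calcr and Vcam1. The endothelial sum was 114 to 311 CPM in knockout and 329 to 550 CPM in control, the fibroblast sum 399 to 757 against 784 to 1130 CPM, and the macrophage sum 208 to 554 against 627 to 887 CPM. Muscle fibre markers summed to 30150 to 45220 CPM in knockout and 31840 to 37990 CPM in control, and 3 of the 8, Myh4, Myh1 and Acta1, fell while none rose. In the RiboTag mRNA no endothelial, fibroblast, macrophage, satellite cell or muscle fibre marker was called. Mean mRNA sums in knockout and control were 752 and 697.5 CPM for endothelial, 820.9 and 796 for fibroblast, and 253.5 and 245.1 for macrophage markers. The part of the footprint shifts in the histone values was not tested.

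Lists of genes that work with the cluster genes are read against the 10.9% of all genes that were higher and the 15.7% that were lower in knockout footprints. Of 22 S phase and mitosis genes tested in footprints 1 rose, the transcription factor gene E2f2 at 0.84 (adjusted p = 0.00661). In the same list 4 fell, a share near that of all genes, the helicase genes Mcm5 and Mcm6, the kinase gene Cdk1, and Top2a, a DNA topoisomerase gene of dividing cells, at -1.10 (adjusted p = 0.0118). The list summed to 572 to 659 CPM in knockout and 572 to 683 CPM in control. Of 19 genes for making or processing histone mRNA 3 rose, among them Eri1, which encodes an exonuclease that trims histone mRNA, at 0.69 (adjusted p = 0.00337), and none fell, so the share that rose was also close to that of all genes. Slbp had a change of 0.11 (adjusted p = 0.7) and Npat, whose protein activates the clusters in S phase, 0.34 (adjusted p = 0.0636). Of 8 genes tested from the list of replication-independent histones 3 rose in footprints, H2afx at 1.31 (adjusted p = 0.00267), H2afv at 0.49 (0.00431) and H1f0 at 0.38 (0.0455). H2afx encodes the H2A variant phosphorylated at DNA breaks.

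In the RiboTag mRNA none of the 10 members tested passed the threshold in edgeR, 3 were below an unadjusted p of 0.05, and DESeq2 called 1, Hist1h1d (adjusted p = 0.0455). Of all genes 4.21% were called in edgeR and 6.64% in DESeq2. Hist1h1d, an H1 variant, had 2, 13, 7 and 8 mRNA counts in knockout and 20, 16, 23 and 16 in control. Every knockout library was below every control library, and the log2 change was -1.53 (SE 0.445, adjusted p = 0.0846 in edgeR). Without knockout RNA_11718 the edgeR value was -2.003 (adjusted p = 0.0363). Hist1h2bc had a change of -0.32 (adjusted p = 0.189), which passed without control RNA_11673, at -0.43 (adjusted p = 0.0375).

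The difference between the footprint change and the mRNA change, called translation efficiency, was higher in knockout for 2 of 22 members tested and lower for none (edgeR interaction term). Of all genes 9.91% were called, 2.93% higher and 6.98% lower. For Hist1h1d it was 1.86 on the log2 scale (SE 0.427, adjusted p = 0.0135). Its footprints had 94, 116, 128 and 210 counts in knockout and 143, 103, 106 and 129 in control, a footprint change of 0.29 (adjusted p = 0.253), so most of the difference lay in the mRNA. In the authors' deposited table the value for Hist1h1d was 2.02 (adjusted p = 0.0002472). Hist1h4d had 2.84 (SE 0.86, adjusted p = 0.0422), which rests on 1 mRNA count over the knockout libraries and 8 over the controls. This call ended in 11 of 16 fits that left out 1 library (adjusted p 0.0245 to 0.139), with the title number as a block (0.0676), with library totals alone (0.0519) and with no filter (0.0596). The authors' deposited table lists 10 members and called 2, Hist1h1d and the H2B gene Hist2h2be at 0.69 (adjusted p = 0.0476), for which the edgeR value was 0.72 (adjusted p = 0.0814) and the DESeq2 value 0.74 (adjusted p = 0.0408). For a mostly tailless mRNA this measure sets footprints against the part of the mRNA that poly(A) selection kept.

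The separate poly(A) series gave no call among the 8 members that passed its filter. Against Cre-negative animals their log2 changes ran from -0.03 (-0.0255) to 0.04 (0.0354), with none below an unadjusted p of 0.05 in limma, while 15.9% of all genes were called. Against oil-treated animals they ran from -0.08 (-0.0766) to 0.04 (0.0358), again with none below an unadjusted p of 0.05, while 24.3% of all genes were called. These comparisons share their knockout animals. The changes are differences of the deposited log2 values, whose transformation is not named. The authors' log2 fold changes for the same 8 members ran wider. They ran from -0.08 (Hist1h1e) to 0.19 (Hist1h4h) against Cre-negative and from -0.19 (Hist1h4i) to 0.17 (Hist1h4h) against oil-treated animals. Hist1h1c had log2 values of 8.50, 8.46, 8.59, 8.55 and 8.45 in knockout and 8.56, 8.45, 8.45 and 8.54 in Cre-negative muscle. Its change was 0.01 (adjusted p = 0.866) against Cre-negative animals and -0.08 (adjusted p = 0.241) against oil-treated ones. In the same tables H1f0, H2afx and H2afv of the replication-independent list rose, H2afx by 0.14 (adjusted p = 0.00529) against Cre-negative and 0.15 (adjusted p = 0.00184) against oil-treated muscle. All 5 erythroid markers tested rose against oil-treated muscle, and 0 of 5 passed the test against Cre-negative muscle. The mean log2 value of the 6 listed erythroid markers was 6.16 to 6.23 in knockout and 6.05 to 6.12 in oil-treated libraries. Of 8 muscle fibre markers 3 rose and 2 fell against oil-treated muscle, and 1 rose and 2 fell against Cre-negative muscle. The part of these shifts in the histone values was not tested. The authors' deposited tables called none of the 69 members in either comparison.

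Of the 22 members tested in nascent RNA 1 fell with FX1 and none rose (limma, adjusted p below 0.05). Of all genes 22% were called, 11.3% higher and 10.8% lower. Hist3h2a, an H2A gene of chromosome 11 (58954685 to 58955192, plus strand), had 5.199, 4.87, 4.83, 5.10 and 4.91 with FX1 and 5.62, 5.36, 5.34, 5.33 and 5.54 with DMSO. All 5 FX1 values were below all 5 DMSO values, and the change was -0.46 (SE 0.114, adjusted p = 0.0154). With the title number as a replicate block the adjusted p was 0.0528 and no member was called. In the authors' deposited table its log2 fold change was -0.88 (adjusted p = 0.005788). Hist1h2be had 6.57, 6.11, 6.07, 6.62 and 6.41 with FX1 and 6.74, 6.66, 6.91, 6.56 and 6.82 with DMSO, with overlap and a change of -0.38 (adjusted p = 0.065). It passed without FX1 replicate 4, at -0.45 (adjusted p = 0.0426). The median change over the 22 members was -0.08, with 6 above 0, against 0.01 (0.0052) over all genes. Several muscle fibre genes fell with FX1 in the same table, 4 of 8 markers, with a median of -0.86 over the list, and the part of this in the histone values was not tested.

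Of 10925 peaks, 10 had a member as the nearest gene, for 9 members, and 7 of these lay within 1000 bases of a start. Among all peaks 15.9% lay that close. Their scores, as the authors' caller gave them, ran from 12.3 to 31.9, against a median of 23.3 over all peaks. The Hist4h4 peak (chromosome 6, 136804347 to 136804567, score 18.4) covers 186 bases of the Hist4h4 promoter printed above. The Hist1h4h peak (chromosome 13, 23530957 to 23531177, score 17.2) covers 137 bases of the Hist1h4h promoter. A Hist1h3a peak (chromosome 13, 23762270 to 23762490, score 23.3) is listed 6 bases from that gene's start. The authors annotated it as a promoter peak, like the Hist2h2aa2 peak at -410 bases, but no member window read here overlaps either. A window around the listed Hist1h3a start would overlap its peak, so that start was not among those read. Hist1h4h's window does not hold the letters TTCNNNGAA. Those in the Hist4h4 window (136804571 to 136804579) lie outside the peak, just past its listed end at 136804567. With 1 ChIP library these peaks have no replicate.

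H3K27ac at the members' starts passed no test after Bcl6 deletion. In the acute series (1w in the file header) 40 member regions within 1000 bases of a start were tested and 0 called, with 3 below an unadjusted p of 0.05 (limma on log2 of tags per 10000000 plus 1), while 0.0932% of all regions were called. In the chronic series (12w) 39 were tested and 0 called, none below an unadjusted p of 0.05, while 0.167% of all regions were called. The median changes were 0.16 and -0.01, against 0.01 (0.00558) and 0.04 (0.0398) over all regions. Of the member regions, 29 of 40 had a change above 0 in the acute series and 19 of 39 in the chronic series. A further series counted windows of 1000 bases on BCL6 peaks, of which 10 belong to members, and 1 was called against 18.1% of all windows.

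That window has the pseudogene Hist1h2al as its nearest gene, far from the main cluster on chromosome 13, at 5218 bases from the Hist1h2al start (51197348 to 51198348). It had 87.3, 97.7 and 77.5 tags per 10000000 in knockout and 29.3, 42.1 and 32.9 in Cre-negative muscle, a log2 change of 1.32 (SE 0.175, adjusted p = 0.000123). The overlapping region in the acute series (51197898 to 51198737) had 43.9, 53.3 and 55.4 in knockout and 28.9, 31.9 and 23.8 in Cre-negative muscle, a change of 0.83 (adjusted p = 0.232). In the chronic series it had 41.5, 49.6 and 46.2 in knockout and 19.4, 11.6 and 24.8 in Cre-negative muscle, a change of 1.31 (adjusted p = 0.126). In all 3 series the knockout values lay above the Cre-negative ones without overlap, a pattern that 7.07% of acute regions, 6.68% of chronic regions and 28.3% of windows showed. The window and region were singled out after their values were seen. A BCL6 peak (51197738 to 51197958, score 22.1) lies in the same window. Hist1h2al RNA averaged 3.83 with FX1 and 3.87 with DMSO in nascent RNA and was near 0 in the footprints, at 0.0738 CPM in knockout and 0.0594 CPM in control.

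**Figure D5:**
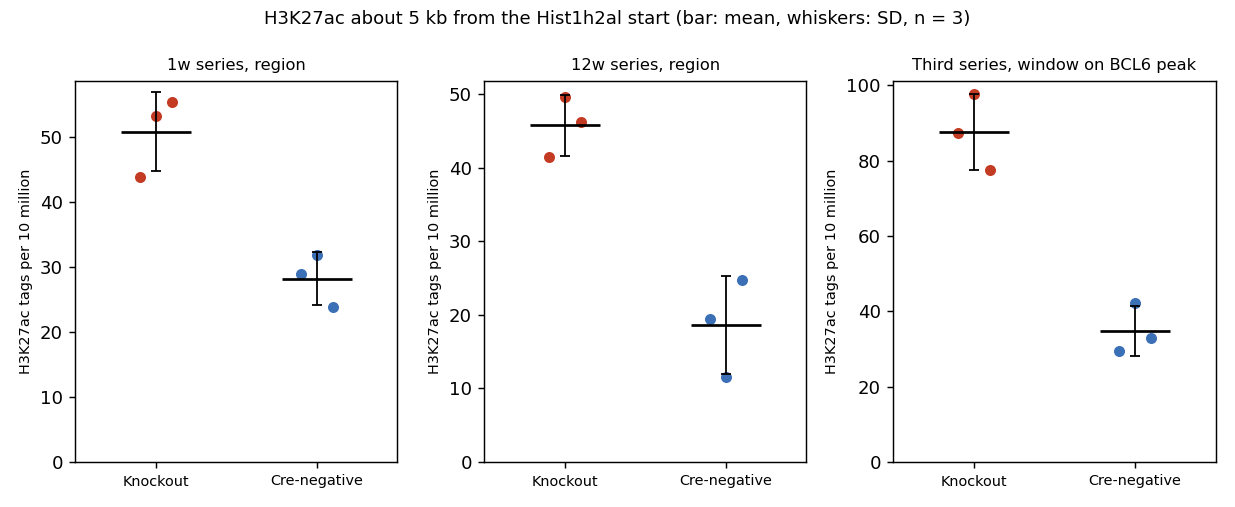
H3K27ac tags per 10000000 in the region or window nearest to Hist1h2al for 3 knockout and 3 Cre-negative animals in each of 3 series, with means and SD bars. The knockout animals sit between 41.5 and 97.7 and the Cre-negative animals between 11.6 and 42.1, apart from each other within each series.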

How the data were processed

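Quadriceps libraries were grouped by their labels. Reads were mapped to mm10 and the tools named are Bowtie 1.2, STAR 2.4.0, HOMER and DESeq2 1.14.1, per the submitters' processing notes. The authors deposited RiboTag counts over whole gene bodies, with at most 5 tags per position, per the file headers; a strand option is not given there. The deposited poly(A) values (exons) and nascent values (gene bodies) are on a log2 scale, per the file headers, which do not name the transformation. The deposited H3K27ac signal is tags scaled to 10000000, per the file headers, and the BCL6 peak score was deposited by the authors without a named scale. Log2 fold changes and adjusted p-values in the authors' deposited tables were copied as given. Nearly all H3K27ac values came out as whole tags (100% within 0.05 tags). Poly(A) libraries were made with a stranded mRNA kit and footprints with a small RNA kit, per the labels' protocols.

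Counts were fitted with edgeR 4.0.16 (TMM, filterByExpr with a minimum count of 10, quasi-likelihood test), deposited log2 values with limma 3.58.1 (at least 4 in as many libraries as the smaller group) and H3K27ac with limma on log2(signal + 1) (signal of at least 5), across each whole table, with Benjamini-Hochberg adjustment and a threshold of 0.05. The fits were tested on simulated data. A fold change on log2(signal + 1) understates low regions. Window counts on BCL6 peaks were tested by a choice made after seeing the files. Alternatives were DESeq2 1.42.0, other scalings, filters and pseudocounts, a replicate block and leaving out each library. RiboTag and nascent labels share title numbers between groups. Same-numbered footprint and mRNA libraries had correlations of their deviations from -0.0552 to 0.43, and the nascent ones from -0.43 to 0.175. Some RiboTag libraries correlated best with the library of the same number, so those numbers may mark shared animals. The main fits left out any such pairing, and the replicate block was the alternative. No libraries were duplicates. Nothing in the labels says that libraries came from separate cultures or animals beyond the title numbers, so p-values measure the spread between these libraries.

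Members named are those past a threshold, the highest per kilobase of each library type, and a set fixed by class and role. The members and gene lists were chosen with earlier results of these data known.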

Additional observations from a re-analysis of the deposited data

Results flagged for a closer look

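Hist1h2be had 30.78 CPM in the RiboTag control mRNA library RNA_11673, far below the other controls, of which the nearest had 50 CPM. Hist1h2bc had a log2 value of 7.398 in knockout poly(A) library RNA_P1907, below the nearest at 7.416. Hist1h4i had a log2 value of 5.499 in oil-treated library RNA_P1910, above the nearest at 5.46. These 3 stood apart among 99 groups of 4 or 5 libraries, and about 5% of groups, 1 in 20, would do so by chance.

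The footprint change and the mRNA change differed for 2 members by the interaction test of edgeR. For Hist1h1d the difference was 1.858 on the log2 scale (adjusted p = 0.0135), and it kept its call in each of 16 fits that left out 1 library (adjusted p 0.00804 to 0.0323). For Hist1h4d it was 2.842 (adjusted p = 0.0422), and it lost its call in 11 of those 16 fits (adjusted p 0.0245 to 0.139).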

How the results depend on the processing

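Of 1350 alternative values of 96 single-member results, 1266 kept their direction and call and 41, in 17 results, changed sign. No value that changed sign was called in either fit (adjusted p of at least 0.582 in the alternative), and 10 values of a median changed sign too. In poly(A) RNA against Cre-negative muscle Hist1h2bc turned to -0.00826 with quantile scaling. Hist2h2be turned to 0.0102 in nascent RNA with quantile scaling, and with library totals alone Hist1h1c turned to 0.0215 in RiboTag mRNA and Hist1h2be to -0.0577 in translation efficiency. With no filter, 1 member (Hist2h4) was called in knockout against oil-treated poly(A) RNA, where 16% of all genes were called. Translation efficiency then gave 1 (Hist1h1d), with 6.06% of all genes called. Footprints against mRNA gave 41 members in knockout and 34 in control muscle, where more low members were tested. In those fits 60.9% of all genes were called in knockout and 59.2% in control. DESeq2 called 1 member in the RiboTag mRNA (6.64% of all genes), and library totals alone left 1 in translation efficiency (8.53% of all genes). Quantile scaling and edgeR on recovered tags each called 2 member windows, those of Hist1h2al and Hist1h2be, with 15.3% of all windows called in each. Both called the chronic Hist1h2al region (adjusted p = 0.0379 and 0.0316). The causes were not tested.

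With the title number as a replicate block, 0 members were called in nascent RNA (Hist3h2a adjusted p = 0.0528, 13% of genes called against 22%). In translation efficiency the block lost Hist1h4d (adjusted p = 0.0676) and gained Hist1h1c (0.0428), with 1717 genes against 1480. The block changed no other count by over 1.5 times. In nascent RNA no library correlated best with its own number, and in the RiboTag libraries 5 of 8 did.

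Leaving out 1 library at a time changed other signs. Against Cre-negative muscle the poly(A) change ran from -0.00834 to 0.0316 for Hist1h1c, -0.00456 to 0.0196 for Hist1h2bc, -0.0190 to 0.0147 for Hist1h4i and -0.0371 to 0.00352 for Hist1h1e, and against oil-treated muscle from -0.0727 to 0.0109 for Hist2h2be. In nascent RNA it ran from -0.194 to 0.0102 for Hist1h2bc and -0.123 to 0.00567 for Hist2h2be. In RiboTag mRNA it ran from -0.157 to 0.0837 for Hist1h1c and -0.158 to 0.1202 for Hist1h2be. In footprints it ran from -0.0127 to 0.142 for Hist1h4c, -0.0260 to 0.164 for Hist1h1e and -0.0688 to 0.0773 for Hist1h2be. In translation efficiency it ran from -0.232 to 0.153 for Hist1h4i, -2.40 to 0.630 for Hist2h4, -2.49 to 0.0254 for Hist1h4c, -0.0857 to 0.195 for Hist1h2be and -0.174 to 0.111 for Hist1h4h.

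Leaving out 1 library at a time gave 1 to 2 members in nascent RNA, 0 to 1 in RiboTag mRNA, 0 to 4 in footprints, 1 to 5 in translation efficiency, 19 to 24 and 18 to 21 in footprints against mRNA in knockout and control, and 1 window in every case. Footprints gave 0 without control RPF_11735 or knockout RPF_11721 and 4 without knockout RPF_11718, which added Hist1h1a and Hist1h1b. Translation efficiency gave 5 without control RPF_11745.

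Over all genes or regions, counts moved by over 1.5 times in nascent RNA with the block (above), in RiboTag mRNA (609 in edgeR, 961 in DESeq2), acute H3K27ac (67, against 153 with a pseudocount of 5 and 162 in edgeR) and chronic H3K27ac (115, against 239, 302 with quantile scaling and 382). Single libraries moved them as well. RiboTag mRNA gave 395 without RNA_11734, 398 without RNA_11735 and 396 without RNA_11722, and footprints gave 2293 (3446 with all) without RPF_11721. Translation efficiency, at 1480, gave 609 to 984 without RPF_11688, RPF_11721, RPF_11722, RPF_11734, RPF_11735, RNA_11688 or RNA_11734. Acute H3K27ac gave 30 without Ctr_6366, 15 without imKO_6346 and 10 without imKO_6349, and chronic H3K27ac gave 404 without Ctr_1801 and 0 to 6 without imKO_1794, imKO_1802 or imKO_1803. The windows, at 1654, gave 1040 without mKO_1900 and 1061 without mKO_1907. Of the 69 members 10 passed the count filter in RiboTag mRNA and 20 in footprints, and the others were not tested at this depth.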
